A study of Mus musculus with 8 samples.

Results

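The 28 genes described here encode 18 enzymes of cholesterol synthesis, 5 proteins that regulate sterol synthesis or move sterols, and 5 enzymes of fatty acid synthesis. They were taken by symbol from the non-control probes of a mouse expression array and are 28 of the 27099 genes tested. The array names 27 of them by these symbols, and Msmo1, listed as Sc4mol, was matched through its RefSeq accession. All 28 passed the filter on dim probes, and the probe used for each was well above background on all 8 arrays.

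Expression was measured in Hoxa9 cells and in eGFP control cells, 4 arrays of each. Both groups began as hindlimb satellite cells, the stem cells of skeletal muscle, taken from C57BL/6J mice aged 3 to 4 months, sorted and kept in growth medium overnight. Hoxa9 cells then carried a lentivirus with Hoxa9 cDNA and eGFP cDNA, and control cells a lentivirus with eGFP cDNA alone. In both groups the virus was stably integrated and eGFP-positive cells were sorted 5 days after transduction, so the control cells had also been transduced, cultured and sorted. The labels do not name the promoter of the vector. They also do not say that each array came from its own animal or culture, and the p-values may therefore rest on technical spread alone.

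Values are log2 levels relative to the 75th percentile of each array, so 0 is the signal of that percentile. Between 69.6% and 77.5% of spots were well above background per array, and no spot was saturated. The probe at chr6:52175595-52175654 (mm9) of Hoxa9, the introduced homeobox gene, read 5.51 ± 0.21 on Hoxa9 arrays and -0.47 ± 0.45 on eGFP arrays (SD, n = 4 each), 63.1-fold higher. A second Hoxa9 probe, at chr6:52174165-52174224, gave a log2 difference of -1.74 instead. All 10 satellite cell and myoblast markers passed the filter. Over all genes tested, 7.42% were lower in Hoxa9 cells at a limma adjusted p under 0.05. Of the 10 markers, 5 (Pax7, Myf5, Cdh15, Itga7 and Vcam1) were lower by that test. Of these, Myf5 lost the call with the replicate block, and Cdh15 and Itga7 with slide as a block (limma adjusted p = 0.05286, 0.1281 and 0.05736). Pax7, the transcription factor that defines satellite cells, averaged 1.25 ± 0.31 on Hoxa9 arrays and 2.55 ± 0.27 on eGFP arrays. Replicates 1 and 2 stood apart from replicates 3 and 4 in several lists below. Replicates 1 and 2 of the Hoxa9 group lay on slide 2, and replicates 1 and 2 of the eGFP group on slide 1.

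Cholesterol is built from acetyl-CoA through mevalonate, farnesyl diphosphate, squalene and lanosterol, and fatty acids are built from the same precursor by carboxylation, chain synthesis, elongation and desaturation. When membrane sterol is low, SCAP escorts the SREBP proteins out of the endoplasmic reticulum. Their released fragments then activate synthesis and uptake genes, with SREBP2 acting mainly on sterol genes and SREBP1 mainly on fatty acid genes. INSIG proteins retain SCAP when sterol is plentiful, and the nuclear receptor LXR, bound by oxysterols, activates genes of sterol export.

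The promoters of these genes were searched for short motifs. RefSeq promoters (GRCm38.p6, 250 bases before to 50 after each start) were found for 15 of the 18 sterol enzymes, 4 of the 5 regulators and 3 of the 5 fatty acid genes. Those of Fdps, Fdft1, Sqle, Stard4, Scd1 and Scd2 were not used here. Searched on both strands, the sterol element TCACNCCAC was in 1 of the 15 sterol enzyme promoters, that of Hmgcs1, and in the promoters of 1.436% of all 27025 genes in the table. Only this exact string was searched, so a promoter without it may still hold another form of the element. The CCAAT box was in 14 of the 15, all but Acat2, against 41.06% of all genes. It was in 3 of the 4 regulator promoters (Srebf1, Srebf2 and Insig1) and in 1 of the 3 fatty acid promoters (Fasn). The GC box GGGCGG was in 14 of the 15 sterol enzyme promoters, in all 4 regulator promoters and in 0 of the 3 fatty acid promoters, against 38.2% of all genes. The E-box CACGTG was in 3 of the 15 (Hsd17b7, Sc5d and Dhcr7), 2 of the 4 (Scap and Insig1) and 0 of the 3, against 8.093% of all genes. The 250 bases before the start of 3 enzymes that fell and of Hmgcs1 are printed 5′ to 3′ on the gene's strand. They lie at chr13:119690101-119690350 (plus strand, Hmgcs1), chr5:4104698-4104947 (minus, Cyp51), chr8:64733579-64733828 (minus, Msmo1) and chrX:72918271-72918520 (plus, Nsdhl). Capitals mark CCAAT or its complement ATTGG and, in Hmgcs1, the string TCACNCCAC, which ends 128 bases before the start.
Hmgcs1: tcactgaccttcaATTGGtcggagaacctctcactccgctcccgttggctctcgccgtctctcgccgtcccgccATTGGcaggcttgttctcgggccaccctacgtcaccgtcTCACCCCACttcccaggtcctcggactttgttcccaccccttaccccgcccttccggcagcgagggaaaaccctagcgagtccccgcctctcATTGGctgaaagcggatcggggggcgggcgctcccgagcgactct
Cyp51: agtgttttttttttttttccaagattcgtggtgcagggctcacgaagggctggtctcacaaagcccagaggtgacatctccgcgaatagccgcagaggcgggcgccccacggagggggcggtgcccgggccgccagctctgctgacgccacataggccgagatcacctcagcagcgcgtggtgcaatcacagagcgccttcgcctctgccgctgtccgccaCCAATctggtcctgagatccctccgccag
Msmo1: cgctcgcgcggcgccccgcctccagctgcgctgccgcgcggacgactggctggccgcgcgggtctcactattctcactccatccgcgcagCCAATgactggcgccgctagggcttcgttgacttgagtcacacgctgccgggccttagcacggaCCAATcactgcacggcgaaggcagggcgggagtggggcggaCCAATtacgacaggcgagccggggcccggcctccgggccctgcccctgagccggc
Nsdhl: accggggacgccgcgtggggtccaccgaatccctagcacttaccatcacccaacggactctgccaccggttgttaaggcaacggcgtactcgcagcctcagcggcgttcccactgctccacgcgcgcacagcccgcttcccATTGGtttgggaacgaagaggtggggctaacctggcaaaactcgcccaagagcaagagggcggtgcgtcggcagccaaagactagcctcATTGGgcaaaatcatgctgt
A match is only a string of letters, and CCAAT was also in the promoters of Lss and Ebp, whose mean levels differed little between the groups.

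The first comparison asked which sterol synthesis genes differed between Hoxa9 cells and eGFP cells. Of the 18 enzymes, 6 were lower in Hoxa9 cells (limma, adjusted p under 0.05) and 0 were higher. The 6 were Fdps, Sqle, Cyp51, Msmo1, Nsdhl and Dhcr7, between 1.64-fold and 2.48-fold lower. In all genes tested, 7.42% were called lower and 7.83% higher, so the share of 33.3% among the enzymes stood above that background. The median difference was -0.22 over the 18 enzymes and -0.07 over all genes, and 14 of the 18 lay below 0 against 55.7% of all genes. In 8 of the 18 no Hoxa9 array reached the lowest eGFP array, a pattern seen in 12.5% of all genes. In 0 of the 18 did every Hoxa9 array exceed the eGFP arrays, against 11.1% of all genes. At an unadjusted p under 0.05, 8 were lower and 0 higher, against 14.2% and 13.3% of all genes.

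**Figure D1:**
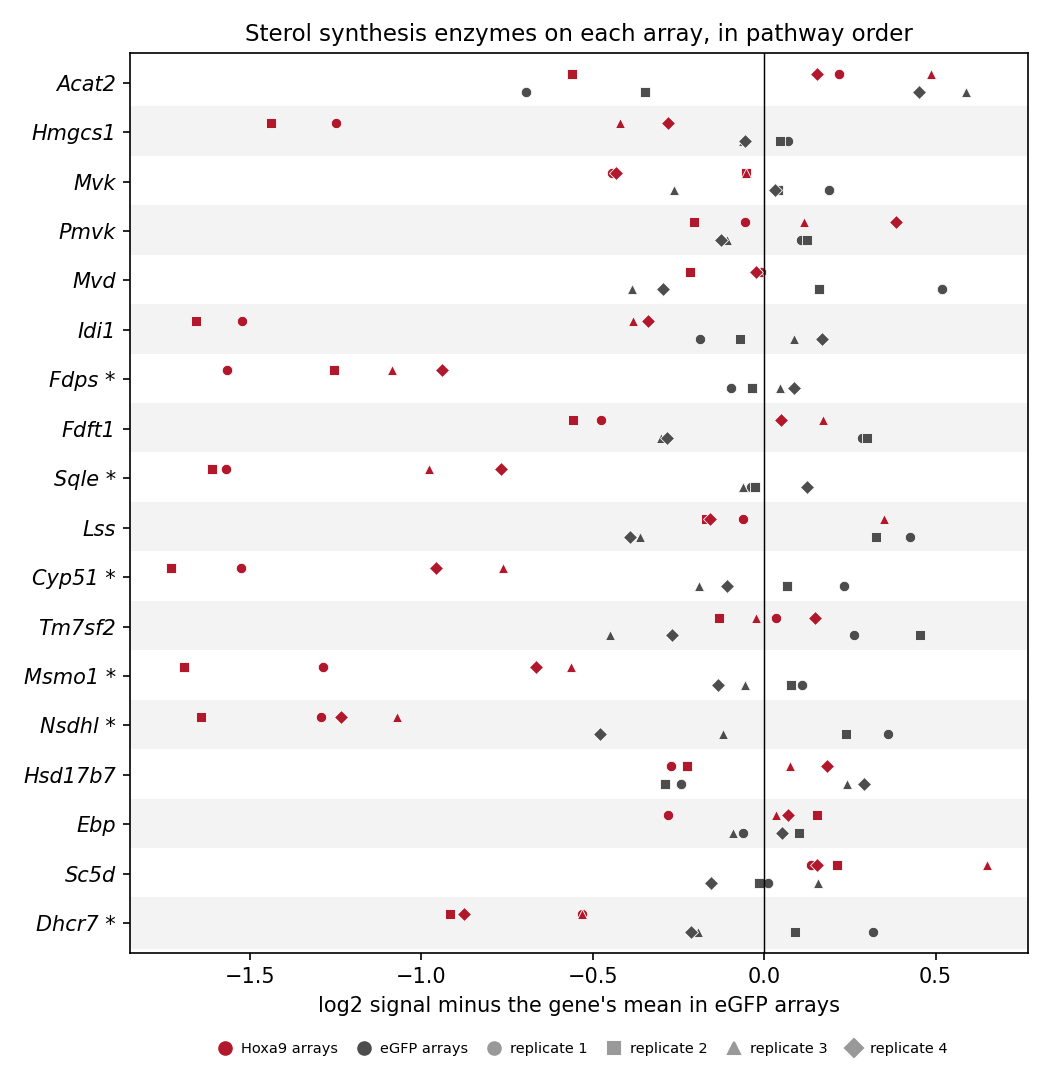
Each row is 1 of the 18 sterol synthesis enzymes in pathway order, and each point is 1 array, as log2 signal minus that gene's mean on eGFP arrays (Hoxa9 arrays in red above, eGFP arrays in grey below, symbols by replicate, asterisks for limma adjusted p under 0.05). The red points of Fdps, Sqle, Cyp51, Msmo1, Nsdhl and Dhcr7 lie left of all grey points, as do those of Hmgcs1 and Idi1, while those of Lss, Tm7sf2 and Ebp mix with the grey ones.

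From acetyl-CoA to farnesyl diphosphate, 1 of the 7 enzymes passed the test. Fdps, farnesyl diphosphate synthase, which makes the precursor shared by sterols and protein prenylation, had levels of 3.47, 3.78, 3.95 and 4.09 on Hoxa9 arrays, against 4.94, 5.00, 5.08 and 5.12 on eGFP arrays (chr3:88897549-88897608, mm9). All 4 Hoxa9 arrays were below all 4 eGFP arrays, whose values were close together. Fdps was 2.32-fold lower (log2 difference -1.21, SE 0.16, limma adjusted p = 0.001825). In these bulk samples, fewer cells of a type and less RNA per cell cannot be told apart.

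Hmgcs1, which makes HMG-CoA, read 3.36, 3.17, 4.18 and 4.32 on Hoxa9 arrays, against 4.67, 4.65, 4.54 and 4.55 on eGFP arrays. Replicates 1 and 2 of the Hoxa9 group were the lowest, and no Hoxa9 array reached the eGFP range. The difference of -0.85 (SE 0.27) had a limma adjusted p of 0.07614, and 0.03892 without Hoxa9 replicate 4. The dimmer Hmgcs1 probe averaged -6.40 on Hoxa9 arrays and -4.92 on eGFP arrays and was well above background on only 5 arrays. Its groups did not overlap (difference -1.48), but so near background this adds no support. Idi1, the isomerase that interconverts the isoprene units, had the same arrangement, with 1.89, 1.75, 3.02 and 3.07 on Hoxa9 arrays against 3.22, 3.34, 3.49 and 3.58 on eGFP arrays. Here too Hoxa9 replicates 1 and 2 were far below the other Hoxa9 arrays, which came near the eGFP range without entering it. Its difference was -0.98 (SE 0.33, limma adjusted p = 0.08917).

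The enzymes between these steps gave small mean differences. Acat2, the thiolase that starts the pathway, differed by 0.07 (95% interval -0.72 to 0.86), with the widest spread on eGFP arrays among the 18 enzymes (SD 0.62). Mvk, mevalonate kinase, differed by -0.25 (-0.63 to 0.14), and its second probe by -0.39. Pmvk, phosphomevalonate kinase, differed by 0.06 (-0.32 to 0.44), and its second probe by -0.04. Mvd, the decarboxylase that forms isopentenyl diphosphate, differed by -0.07 (-0.56 to 0.43), with Hoxa9 replicate 2 apart from the other Hoxa9 arrays. In each of these 4 the groups overlapped.

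In the steps through squalene and lanosterol, 1 of the 3 enzymes passed. Sqle, squalene epoxidase, the first oxygen-requiring step of sterol synthesis, had levels of 2.80, 2.76, 3.39 and 3.60 on Hoxa9 arrays, against 4.33, 4.34, 4.31 and 4.49 on eGFP arrays (chr15:59162688-59162747, mm9). The eGFP arrays lay within a narrow band and every Hoxa9 array was below it. Sqle was 2.35-fold lower (-1.23, SE 0.22, limma adjusted p = 0.006158). Its neighbours in the pathway had smaller mean differences. Fdft1, squalene synthase, differed by -0.20 (95% interval -0.75 to 0.35), and Lss, lanosterol synthase, by -0.01 (-0.56 to 0.54), and in both the groups overlapped. These means join opposite signs. In the same-numbered pairs 1 to 4, Fdft1 differed by -0.76, -0.86, 0.47 and 0.33, and Lss by -0.49, -0.49, 0.71 and 0.23. The dimmer Fdft1 probe, well above background on 7 arrays, differed by -0.44 with overlapping groups.

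From lanosterol to cholesterol, 4 of the 8 enzymes passed. Cyp51, the lanosterol demethylase whose promoter is printed above, read -0.81, -1.01, -0.04 and -0.24 on Hoxa9 arrays, against 0.95, 0.79, 0.53 and 0.61 on eGFP arrays (chr5:4081471-4081530, mm9). The groups did not overlap, with Hoxa9 replicates 1 and 2 again lowest. It was 2.37-fold lower (-1.24, SE 0.24, limma adjusted p = 0.009544).

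Msmo1 and Nsdhl act one after the other in removing methyl groups from the sterol ring. Msmo1, the methylsterol oxidase, had 3.08, 2.67, 3.80 and 3.70 on Hoxa9 arrays, against 4.48, 4.44, 4.31 and 4.23 on eGFP arrays. Nsdhl, the dehydrogenase of the next reaction, had -0.75, -1.10, -0.53 and -0.69 on Hoxa9 arrays, against 0.91, 0.79, 0.42 and 0.07 on eGFP arrays. Neither gene had an overlapping array, and the Hoxa9 arrays of Nsdhl were more alike than those of Msmo1. Msmo1 was 2.08-fold lower (-1.05, SE 0.26, limma adjusted p = 0.02738) and Nsdhl 2.48-fold lower (-1.31, SE 0.22, limma adjusted p = 0.005221). The second Nsdhl probe, dimmer and also without overlap, differed by -1.47. With replicate number as a block, Msmo1 no longer passed (limma adjusted p = 0.05888).

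Hsd17b7, the reductase that completes the removal of methyl groups after Nsdhl, differed by -0.06 (95% interval -0.51 to 0.39), and its 3 probes gave -0.14, -0.06 and 0.10. Its level did not separate the groups. The sterol reductase Tm7sf2 differed by 0.01 (-0.50 to 0.51) and the sterol isomerase Ebp by -0.01 (-0.34 to 0.32). The second Tm7sf2 probe differed by 0.09. Sc5d, the sterol desaturase, had the highest difference of the 18 enzymes, 0.29 (-0.09 to 0.66, limma adjusted p = 0.3017), with Hoxa9 replicate 3 apart from the other Hoxa9 arrays.

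Dhcr7, the reductase of a last step to cholesterol, had -1.32, -1.70, -1.32 and -1.66 on Hoxa9 arrays, against -0.47, -0.70, -0.98 and -1.0 on eGFP arrays. The groups did not overlap, and the split between replicates seen in Sqle and Cyp51 was absent on the Hoxa9 side. Dhcr7 was 1.64-fold lower (-0.71, SE 0.18, limma adjusted p = 0.03036), the smallest change of the 6. Beside these 6, the 10 enzymes other than Hmgcs1 and Idi1 lay between -0.25 and 0.29 on the brightest probe of each. All had a limma adjusted p of 0.3017 or more. Enzymes that fell were thus interleaved along the pathway with enzymes whose mean difference was near 0. A mean near 0 was not always a steady level. Pmvk, Mvd, Fdft1, Lss and Tm7sf2 were lower in same-numbered pairs 1 and 2 and higher in pairs 3 and 4.

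**Figure D2:**
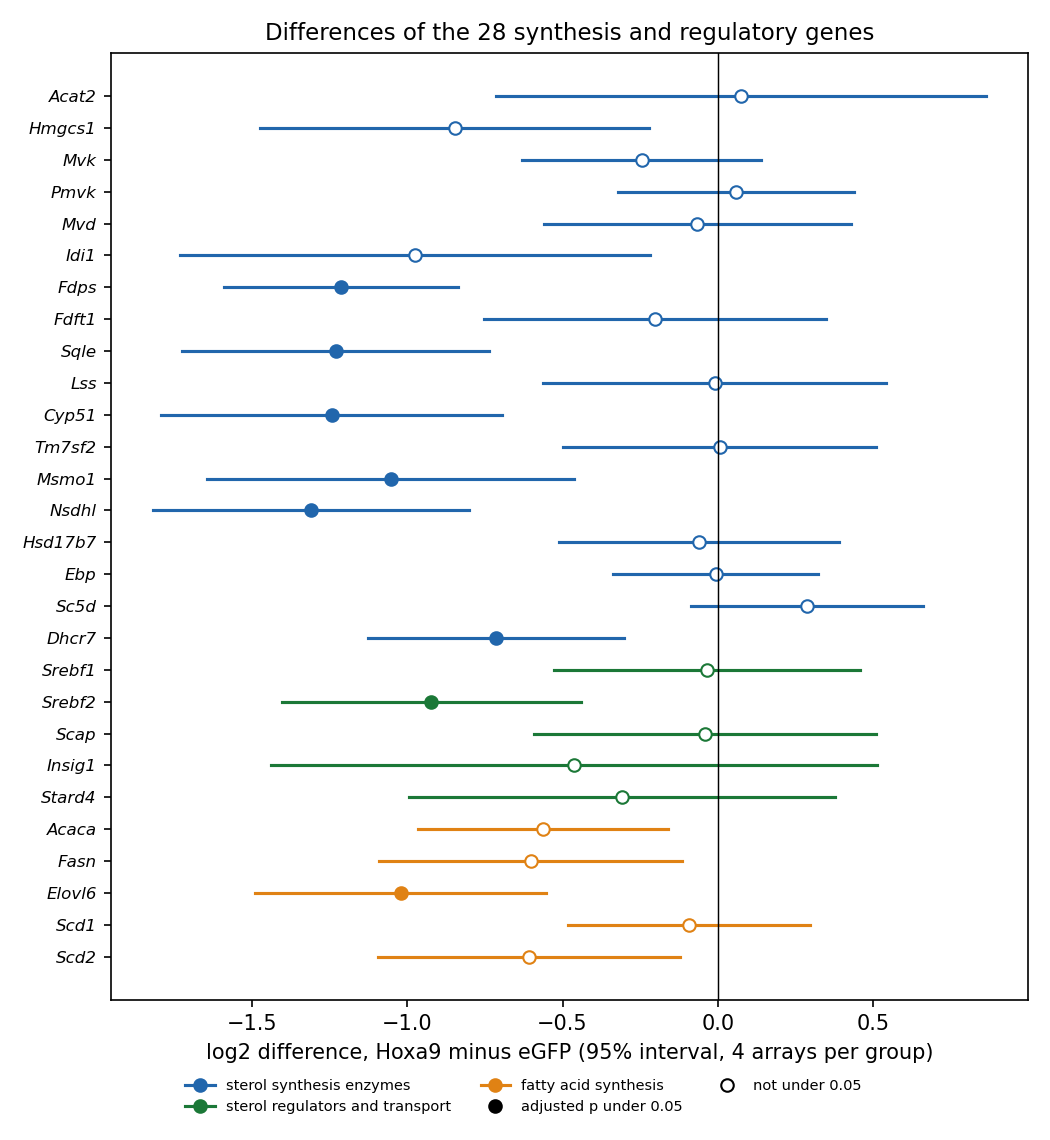
Points are log2 differences, Hoxa9 minus eGFP, of all 28 genes with their 95% intervals (4 arrays per group), coloured by group of genes and filled where the limma adjusted p is under 0.05. The 8 filled points lie between -1.31 and -0.71, and no interval lies wholly above 0.

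All 6 enzymes that fell did so in each of the 4 same-numbered pairs of arrays and on each of the 3 slides. Arrays that do not overlap allow no other outcome, so this adds nothing to the separation above. The size of the fall was unequal among the 6 enzymes and the pairs. The differences of these enzymes ran from -1.88 to -0.85 in pairs 1 and 2 and from -1.13 to -0.34 in pairs 3 and 4. In all 6 both of the first pairs showed the larger fall. The median over the 18 enzymes was -0.70 and -0.72 in pairs 1 and 2, and -0.13 and -0.26 in pairs 3 and 4. Within slides, where each slide holds both groups, it was -0.35, -0.51 and -0.15, and -0.15 with slide as a block. Slide 1 set Hoxa9 replicate 4 against eGFP replicates 1 and 2, and slide 2 set Hoxa9 replicates 1 and 2 against eGFP replicate 3. Slide 3 set Hoxa9 replicate 3 against eGFP replicate 4. No slide holds a same-numbered pair, so slide and replicate cannot be told apart in these differences. Within slides the 6 enzymes differed by -1.53 to -0.74 on slide 1, -1.53 to -0.53 on slide 2 and -1.17 to -0.32 on slide 3. With slide as a block Msmo1 and Dhcr7 no longer passed (limma adjusted p = 0.05539 and 0.09963).

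Leaving out single arrays ended the same calls. Fdps, Sqle, Cyp51 and Nsdhl passed without any 1 array. Msmo1 did not pass without eGFP replicate 1, 2, 3 or 4 (limma adjusted p = 0.07018, 0.07674, 0.06235 and 0.05334) or without Hoxa9 replicate 1 (0.07727). Dhcr7 did not pass without eGFP replicate 1 or 2 (limma adjusted p = 0.0711 and 0.08973) or without Hoxa9 replicate 1, 2 or 4 (0.05044, 0.06227 and 0.07642). Their differences stayed between -1.10 and -0.61 in these fits. The median over the 18 enzymes was -0.15 without Hoxa9 replicate 1.

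The second comparison concerned the regulators of sterol synthesis and a sterol carrier, of which 1 of 5 was lower and 0 were higher (limma, against 7.42% and 7.83% of all genes). The counts were the same at an unadjusted p under 0.05, against 14.2% and 13.3% of all genes. Srebf2, which encodes SREBP2, the transcription factor of sterol synthesis genes, had levels of -0.58, -1.15, -0.69 and -0.19 on Hoxa9 arrays, against 0.15, 0.18, 0.43 and 0.30 on eGFP arrays (chr15:82034765-82034824, mm9). Every Hoxa9 array was below every eGFP array, with Hoxa9 replicate 4 nearest. Srebf2 was 1.90-fold lower (-0.92, SE 0.21, limma adjusted p = 0.02031). Its dimmer probe differed by -0.50 with overlapping groups. The call was lost with slide as a block (limma adjusted p = 0.07514) and without eGFP replicate 2, 3 or 4 or Hoxa9 replicate 3 (0.05084, 0.05878, 0.0515 and 0.05473).

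The partner genes of the SREBP pathway did not pass. Srebf1, which encodes SREBP1, differed by -0.03 (95% interval -0.53 to 0.46), and Scap, the escort of SREBP, by -0.04 (-0.59 to 0.51). Insig1, which retains SCAP and is itself a sterol-responsive gene, read -0.88, -0.53, 0.18 and 0.50 on Hoxa9 arrays, against -0.43, -0.27, 0.87 and 0.94 on eGFP arrays. In both groups Insig1 was lower in replicates 1 and 2 than in replicates 3 and 4, so the groups overlapped although the Hoxa9 array was lower in each same-numbered pair. Its difference was -0.46 (95% interval -1.44 to 0.51, limma adjusted p = 0.5133). Stard4, a cytosolic sterol carrier, differed by -0.31 (-0.99 to 0.38) with overlapping groups, while its dimmer probe did not overlap (-0.58).

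The third comparison set apart the fatty acid synthesis genes. Of the 5, Elovl6 was lower and 0 were higher (limma), a share of 20.0% against 7.42% of all genes. All 5 differences were below 0, with a median of -0.60. At an unadjusted p under 0.05, 4 were lower and 0 higher, against 14.2% and 13.3% of all genes. In 3 of the 5 the Hoxa9 arrays all lay below the eGFP arrays, against 12.5% of all genes. Whether the fatty acid genes differ from the sterol enzymes as a list was not tested.

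Elovl6, the elongase that extends palmitate to stearate, had 1.04, 0.90, 1.27 and 0.85 on Hoxa9 arrays, against 2.40, 2.28, 1.71 and 1.76 on eGFP arrays (chr3:129341248-129341307, mm9). The Hoxa9 arrays were alike and below all eGFP arrays, among which replicates 1 and 2 were the higher. Elovl6 was 2.03-fold lower (-1.02, SE 0.20, limma adjusted p = 0.01151), and passed without any 1 array.

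Acaca, acetyl-CoA carboxylase, which commits acetyl-CoA to fatty acids, had 2.48, 2.79, 2.65 and 2.42 on Hoxa9 arrays, against 3.45, 3.28, 2.84 and 3.02 on eGFP arrays. Scd2, a desaturase that introduces a double bond into stearate and palmitate, had 4.38, 4.09, 4.25 and 4.42 on Hoxa9 arrays, against 5.23, 5.22, 4.47 and 4.65 on eGFP arrays. In both genes the groups did not overlap, and the gap was widest to eGFP replicates 1 and 2. The differences were -0.56 for Acaca (SE 0.18, limma adjusted p = 0.06854) and -0.61 for Scd2 (SE 0.21, limma adjusted p = 0.09777). Acaca had 4 probes, all with differences below 0 (-0.61 to -0.30), of which the brightest pair share nearly all their bases.

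Fasn, the synthase that assembles palmitate, had -0.88, -1.10, -0.71 and -1.13 on Hoxa9 arrays, against 0.03, -0.10, -0.57 and -0.76 on eGFP arrays. Hoxa9 replicate 3 was above eGFP replicate 4, so the groups overlapped there. The Fasn difference was -0.60 (SE 0.21, limma adjusted p = 0.101). Scd1, the desaturase paralogous to Scd2, differed by -0.09 (95% interval -0.48 to 0.30). The median over the 5 genes was -0.91 and -1.0 in pairs 1 and 2 against -0.19 and -0.37 in pairs 3 and 4. On the slides it was -0.94, -0.23 and -0.38.

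The mean level of each list was taken per array, because the replicates split in more than one list. Mean levels of the 18 sterol enzymes were 1.51, 1.40, 1.94 and 1.85 on Hoxa9 arrays and 2.25, 2.23, 2.08 and 2.09 on eGFP arrays. In the sterol enzymes the split between replicates was larger on the Hoxa9 side. The fatty acid genes averaged 1.49, 1.41, 1.54 and 1.31 on Hoxa9 arrays and 2.32, 2.25, 1.71 and 1.78 on eGFP arrays, where the split was on the eGFP side.

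Markers of dividing cells separated the groups, and the mean of the fibroblast markers separated the replicates. Of 10 proliferation markers, 9 were lower in Hoxa9 cells (limma), with a mean level of -0.12 to 1.08 on Hoxa9 arrays and 2.14 to 2.41 on eGFP arrays. Among the 9, Aurkb was well above background on 2 Hoxa9 arrays. The shares over all genes, beside this and the marker counts below, were 7.42% lower and 7.83% higher. At an unadjusted p under 0.05 they were 14.2% and 13.3%. Mean fibroblast marker levels, over 8 genes, were -0.87, -0.66, 1.08 and 0.88 on Hoxa9 arrays and -0.66, -0.88, 0.42 and 0.22 on eGFP arrays. They were low in replicates 1 and 2 of both groups and high in replicates 3 and 4, whereas on eGFP arrays the sterol and fatty acid lists were high in replicates 1 and 2. Single fibroblast markers did not all split so. Col3a1 read 3.11, 3.01, 2.90 and 2.96 on Hoxa9 arrays, and Pdgfra was higher in eGFP replicate 1 (-1.76) than in eGFP replicate 4 (-2.11). Lum, at -7.79 and -8.07 in Hoxa9 replicates 1 and 2, lowers the mean there. Of the 8 fibroblast markers, Ly6a was higher in Hoxa9 cells (limma). With the replicate block, 2136 of 27099 genes were lower and 2304 higher (limma). In that fit Thy1 was also higher and Lum lower (limma adjusted p = 0.021 and 0.04399). Lum was well above background on 2 Hoxa9 and 4 eGFP arrays, so its call lies near background. Of 7 adipocyte markers tested, Fabp4 and Cebpa were higher and 0 were lower (limma, also at an unadjusted p under 0.05). Mean adipocyte marker levels were -2.49 to -2.04 on Hoxa9 arrays and -3.32 to -2.59 on eGFP arrays. The adipocyte-defining genes Plin1 and Cfd did not pass the filter, and Adipoq was well above background on 2 arrays of each group. Of the other lists, without the block, 0 of 4 macrophage markers and 0 of 3 endothelial markers tested passed in either direction (limma). At an unadjusted p under 0.05, 0 and 1 did. Ptprc and Lyz2 of the macrophage list, and Tek and Emcn of the endothelial list, did not pass the filter. Mean macrophage marker levels were 0.33 to 1.12 on Hoxa9 arrays and 0.25 to 0.80 on eGFP arrays. They join Itgam (5.02 on Hoxa9 and 5.04 on eGFP arrays) with Adgre1 (-4.37 and -5.34). Adgre1 was well above background on 3 Hoxa9 and 2 eGFP arrays. Mean endothelial marker levels, which join Kdr (3.71 and 3.50) with Cdh5 (-6.36 and -4.30), were -2.14 to -0.68 on Hoxa9 arrays and -1.02 to -0.18 on eGFP arrays. Of the 5 smooth muscle markers, Acta2 was lower and Cnn1 higher (limma), with mean list levels of 1.09 to 2.32 on Hoxa9 arrays and 1.03 to 1.60 on eGFP arrays. With the replicate block the endothelial marker Cdh5 was lower and the smooth muscle marker Myh11 higher (limma adjusted p = 0.04533 and 0.04496). Cdh5 was well above background on 1 Hoxa9 and 3 eGFP arrays, and Myh11 on 4 Hoxa9 and 2 eGFP arrays. Both passed the filter on dim probes mainly through the group where they were higher, so these calls lie near background. The part of these cells and of cell division in the sterol and fatty acid results was not tested.

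**Figure D3:**
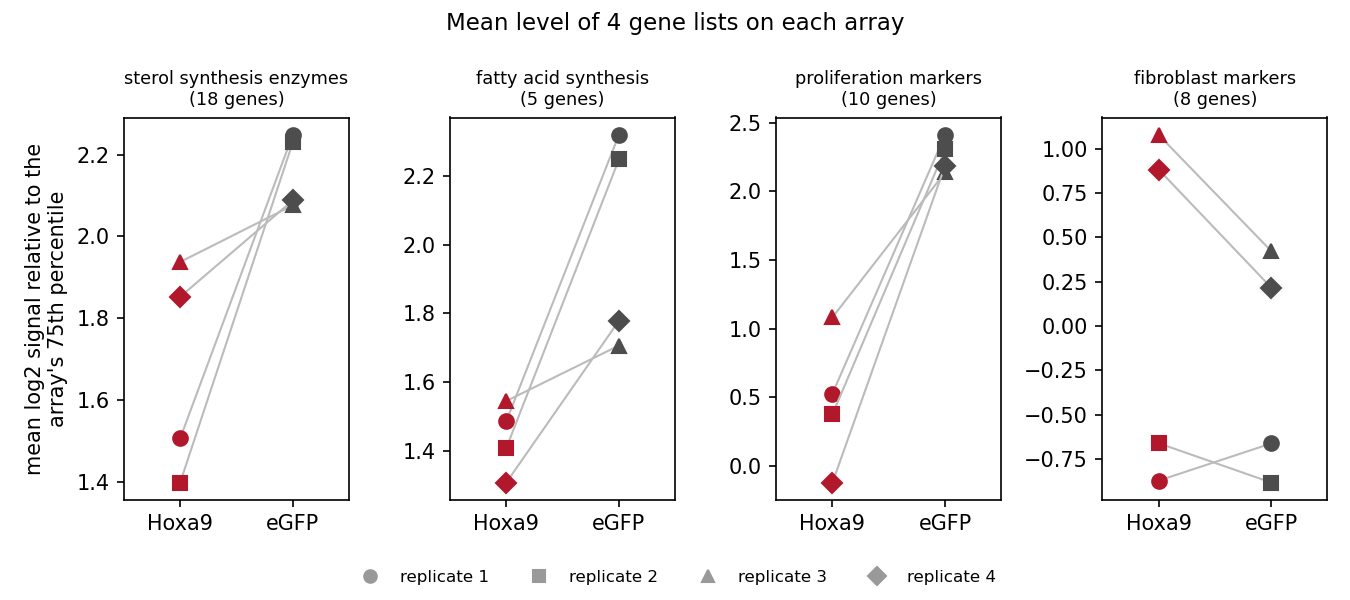
Each point is the mean log2 signal of a gene list on 1 array, relative to the array's 75th percentile (Hoxa9 left, eGFP right, lines joining same-numbered arrays, each panel with its own axis). The Hoxa9 points of the sterol, fatty acid and proliferation lists lie below all eGFP points, and the fibroblast list separates replicates 1 and 2 from replicates 3 and 4 in both groups.

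Other genes of sterol synthesis came from a separate list of 8, of which 2 were lower and 0 higher (limma, against 7.42% and 7.83% of all genes). At an unadjusted p under 0.05, 4 were lower and 0 higher, against 14.2% and 13.3% of all genes. Lbr, a nuclear membrane protein that is also a sterol reductase, had 0.99, 0.80, 0.97 and 0.72 on Hoxa9 arrays, against 1.99, 1.78, 1.48 and 1.43 on eGFP arrays. Its Hoxa9 arrays were alike and all lay below the eGFP arrays. Lbr differed by -0.80 (SE 0.17, limma adjusted p = 0.01433). It did not pass with slide as a block (limma adjusted p = 0.05588), with the median subtracted (0.06068) or without eGFP replicate 2 (0.05042).

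Of 12 genes of sterol sensing and uptake, 1 was lower and 2 were higher (limma), 8.33% and 16.7% of the list against 7.42% and 7.83% of all genes. The share called lower was thus near that of all genes. Npc1, which exports cholesterol from lysosomes, averaged -0.47 ± 0.16 on Hoxa9 arrays and -1.36 ± 0.23 on eGFP arrays (SD, n = 4 each), a difference of 0.89 (limma adjusted p = 0.00768). Vldlr, a receptor for triglyceride-rich lipoproteins, averaged 3.03 ± 0.44 on Hoxa9 arrays and 1.59 ± 0.26 on eGFP arrays (SD, n = 4 each), a difference of 1.45 (limma adjusted p = 0.005185). For these 2 genes all Hoxa9 arrays were above all eGFP arrays.

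Of 15 genes of sterol efflux, esterification and LXR, 5 were higher and 1 lower (limma), where 7.83% and 7.42% of all genes were called. The 5 include Cyp27a1, which passed the filter on dim probes mainly through the Hoxa9 arrays. Abca1, the transporter that loads cholesterol onto apolipoproteins, had 1.07, 1.37, 0.72 and 0.71 on Hoxa9 arrays, against -3.40, -2.85, -3.14 and -2.36 on eGFP arrays. Nr1h3, which encodes the receptor LXR alpha, had -0.52, -0.82, -0.75 and -0.78 on Hoxa9 arrays, against -2.24, -2.24, -2.05 and -2.10 on eGFP arrays. Both separated the groups by far more than the spread within either. Abca1 was 15.0-fold higher (3.91, SE 0.26, limma adjusted p = 7.721e-05, with a difference of 2.99 under normexp background correction) and Nr1h3 2.71-fold higher (1.44, SE 0.13, limma adjusted p = 0.0003185). Osbp, an oxysterol-binding protein that moves sterol between membranes, differed by 0.97 (SE 0.17, limma adjusted p = 0.006893). Cyp27a1, a sterol hydroxylase, differed by 1.04 (limma adjusted p = 0.009246), though 1 eGFP array measured it well above background and with normexp background correction the difference was 0.21 (limma adjusted p = 0.3622). Apoe, the apolipoprotein (0.77), and the lower gene Ch25h, cholesterol hydroxylase (-0.65), were named after their values were seen. Both lost their calls with slide as a block (limma adjusted p = 0.09392 and 0.07353). Apoe also did not pass without eGFP replicate 1, 3 or 4 or Hoxa9 replicate 1, 2 or 3 (limma adjusted p = 0.05765 to 0.0867), and Ch25h without any single array except Hoxa9 replicate 2 (0.06555 to 0.08669). Under normexp the Ch25h difference was -0.35 (limma adjusted p = 0.1416).

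**Figure D4:**
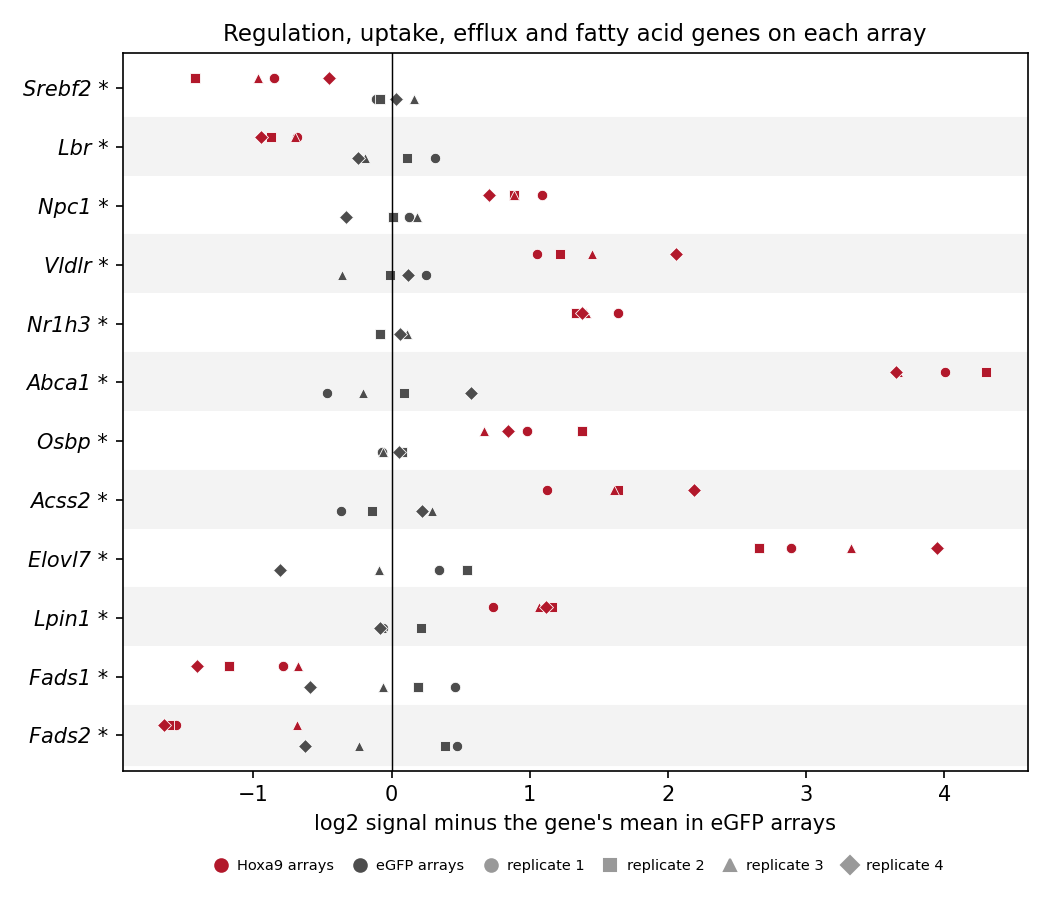
Points are single arrays, as log2 signal minus the gene's mean on eGFP arrays (Hoxa9 in red above, eGFP in grey below, symbols by replicate, asterisks for limma adjusted p under 0.05), for Srebf2 and genes of uptake, efflux and fatty acid metabolism. The Hoxa9 arrays of Abca1 lie about 4 log2 units right of the eGFP arrays, and those of Srebf2, Lbr, Fads1 and Fads2 lie left. No gene shown has overlapping groups, but every gene shown was called in limma, which favours separated groups.

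Of a wider list of 26 fatty acid genes, 4 were higher and 4 lower (limma), 15.4% of the list each way against 7.83% and 7.42% of all genes. Acss2, which makes acetyl-CoA from acetate in the cytosol, had 0.27, 0.78, 0.75 and 1.33 on Hoxa9 arrays, against -1.23, -1.0, -0.57 and -0.64 on eGFP arrays. Elovl7, an elongase, had 0.68, 0.45, 1.11 and 1.73 on Hoxa9 arrays, against -1.87, -1.66, -2.30 and -3.01 on eGFP arrays. These 2 genes were higher on every Hoxa9 array, unlike Elovl6. Acss2 differed by 1.64 (SE 0.25, limma adjusted p = 0.003397, or 0.84 and 0.04774 with the mean of its probes) and Elovl7 by 3.20 (SE 0.37, limma adjusted p = 0.0008496). Lpin1, a phosphatidate phosphatase of triglyceride synthesis, differed by 1.02 (SE 0.15, limma adjusted p = 0.002822), with eGFP replicate 2 apart from the other eGFP arrays.

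The desaturases of polyunsaturated fatty acids fell. Fads2 had -1.97, -2.02, -1.10 and -2.06 on Hoxa9 arrays, against 0.07, -0.02, -0.64 and -1.04 on eGFP arrays. Fads1 had -0.15, -0.55, -0.04 and -0.78 on Hoxa9 arrays, against 1.09, 0.83, 0.57 and 0.04 on eGFP arrays. For both the groups came close without overlapping, at Hoxa9 replicate 3 and eGFP replicate 4, and in Fads2 that Hoxa9 array stood apart from its group. Fads2 differed by -1.38 (SE 0.32, limma adjusted p = 0.02155) and Fads1 by -1.01 (SE 0.27, limma adjusted p = 0.03555). With slide as a block their adjusted p in limma was 0.07353 and 0.1052. Fads2 did not pass without eGFP replicate 1 or 2 or Hoxa9 replicate 1 or 4 (limma adjusted p = 0.05756 to 0.06602). Fads1 did not pass without eGFP replicate 1, 2 or 3 or Hoxa9 replicate 1, 2 or 4 (limma adjusted p = 0.06051 to 0.1006). Elovl1 (0.48), Elovl4 (-0.85) and Hsd17b12 (-0.72), which act in fatty acid elongation, complete the calls and were named after their values were seen. They did not pass when single arrays were left out, namely any but Hoxa9 replicate 2 for Elovl1 (limma adjusted p = 0.07695 to 0.1112), any but Hoxa9 replicates 1 and 2 for Elovl4 (0.0509 to 0.09025), and any but eGFP replicate 1 for Hsd17b12 (0.05364 to 0.0989). With slide as a block Elovl1 and Hsd17b12 had 0.0755 and 0.07672, and with the replicate block Elovl1 had 0.07487 (limma adjusted p). Acly, which makes cytosolic acetyl-CoA from citrate, differed by -0.59 (SE 0.18, limma adjusted p = 0.06093). It passed in 5 of 19 alternatives (limma adjusted p = 0.03067 to 0.04968). These were normexp, the tightened filter on dim probes, the trended and robust prior, weights per array, and leaving out Hoxa9 replicate 4.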

How the data were processed

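The deposited intensity values come from the scanner output of 8 one-colour (Cy3) Agilent mouse 8x60K arrays, made from 0.1 ug RNA. The authors used Agilent Feature Extraction 10.7.3.1, per the submitters' processing notes, and its background-subtracted signal is used here, per the file headers. Probe positions are on mm9, per the file headers, without a gene annotation of mm9. The deposited table of processed values, treated as a score, lacked the decimal point in 86.1% to 87.3% of cells. With the point restored, its log2 values followed the deposited scanner signal plus a constant per array, and its column medians were -3.24, -3.26, -3.22 and -2.95 for Hoxa9 arrays and -3.36, -3.23, -3.11 and -3.08 for eGFP arrays. It served only as an alternative, and why its constants differ by array is unknown.

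Signals were taken to log2 and each array's 75th percentile was subtracted. Control spots and outlier spots were left out, repeated spots averaged, and a probe was kept if at least 4 of 8 arrays had it well above background (40757 probes). The brightest probe stood for each gene (27099 genes). RefSeq accessions matched 27656 probes and renamed 1711. The 2 groups were tested in limma 3.58.1 (R 4.3.3) (two-sided tests, p-values adjusted by Benjamini-Hochberg over all genes, called under 0.05), after tests on simulated data. The number of arrays limits the precision.

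Members, lists, tests and alternatives were chosen with earlier results of these data known. Named genes are all 28 members, Hoxa9, up to 4 called genes of lowest adjusted p per further pathway list, and Acly, Fads1, Fads2, Abca1 and Nr1h3. Some genes that this rule takes are not reported here, though the totals of their lists include them. Apoe, Ch25h, Elovl1, Elovl4 and Hsd17b12 were named after their values were seen, as were the cell type markers other than Pax7.

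The titles give both groups the same experiment numbers. After subtracting group means, arrays of the same number correlated at 0.143, 0.228, 0.129 and 0.186, and on this ground the number was treated as a pairing and blocked on in an alternative. Of 12 other pairs, 2 also exceeded the limit of 0.1. They were Hoxa9 replicate 3 with eGFP replicate 4 (0.188) and Hoxa9 replicate 4 with eGFP replicate 3 (0.137). The correlations thus leave the pairing of numbers 3 and 4 uncertain.

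The other alternatives were slide as a block, quantile or median normalization, normexp, dropping or tightening the filter on dim probes, averaging the probes of a gene, the deposited table, a trended and robust prior, weights per array, and leaving out each array.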

Additional observations from a re-analysis of the deposited data

Results flagged for a closer look

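Over 50 genes and both groups, 100 groups of 4 arrays were examined for 1 array standing apart by Dixon's criterion, and 4 did; chance alone gives about 1 in 20 groups. Mvd, the mevalonate pathway decarboxylase, read 1.165 in Hoxa9 replicate 2, below the other Hoxa9 arrays at 1.36 to 1.37. Sc5d, the sterol desaturase, read 2.5 in Hoxa9 replicate 3, above the other Hoxa9 arrays at 1.99 to 2.06. Fads2, the polyunsaturated fatty acid desaturase, read -1.0952 in Hoxa9 replicate 3, above the other Hoxa9 arrays at -2.06 to -1.97. Lpin1, the phosphatidate phosphatase, read -1.5565 in eGFP replicate 2, above the other eGFP arrays at -1.85 to -1.83.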

How the results depend on the processing

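Across 19 alternatives, no called difference changed its direction. Of the 8 genes called lower, 5 (Fdps, Sqle, Cyp51, Nsdhl and Elovl6) passed in all 19. The exceptions were Msmo1, Dhcr7 and Srebf2, whose losses under slide, replicate block and left-out arrays stand in the report. Msmo1 also lost its call under quantile normalization (limma adjusted p = 0.05596), and Dhcr7 with the median subtracted (0.09817) and with no filter (0.05013). Among the named pathway genes outside the 28, the replicate block ended the call of Elovl1 and changed no other call. Further calls were lost with the median subtracted (limma adjusted p of 0.1177 for Apoe, 0.08471 for Ch25h, 0.1638 for Elovl1, 0.0837 for Elovl4 and 0.08287 for Fads1), with no filter (0.0566 for Ch25h, 0.07395 for Elovl1, 0.05275 for Elovl4, 0.06155 for Hsd17b12 and 0.05417 for Fads1), under normexp (0.06331 for Elovl4 and 0.1504 for Hsd17b12), under quantile normalization (0.09994 for Hsd17b12) and with the mean of probes (0.05657 for Elovl1). The count of sterol enzymes lower was 6 in the main analysis, 5 with the replicate block, 4 with slide as a block, 7 with the mean of probes and with the trend, and 8 with normexp, where Hmgcs1 and Idi1 passed. Leaving out 1 array gave 4 to 6. The count of fatty acid genes lower was 2 instead of 1 under quantile normalization, normexp, the mean of probes, the trend and robust prior, and array weights, through Acaca or, under normexp, Scd2. Over all genes, 2011 were lower and 2123 higher, against 2136 and 2304 with the replicate block and 1404 and 1680 with slide as a block. Without 1 array the counts were 1293 to 1891 lower, the lowest without eGFP replicate 2, and 1580 to 1906 higher. The median difference of all genes was -0.10 with the median subtracted and -0.04 under quantile normalization. Genes near the threshold thus depend on these settings, the cause was not tested, and 4 arrays per group limit what can be called.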
